A study of Mus musculus with 10 samples.

Results

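Apolipoproteins are the protein coat of plasma lipoproteins, and the genes for 10 of their family and partners were followed across 5 mouse tissues: Apoa1, Apoa2, Apoa4, Apob, Apoc1, Apoc2, Apoe, Apoh, Apom and the lipoprotein-bound esterase Pon1. A probe set, the group of oligonucleotides on an array that reports 1 transcript, was taken where the annotation paired it with 1 gene and that gene was in the list. This gave 15 of 7542 single-gene probe sets, for 9 of 6137 genes. Apob, the structural protein of chylomicrons and of very low and low density lipoproteins, had no such probe set and is not analysed here. RNA came from liver, pancreas, muscle, hypothalamus and white adipose tissue of adult female C57BL/6 mice, with no genetic change or treatment named for any of them. Every tissue has a single array on chip A and a single array on chip B of an Affymetrix set, 10 arrays in all, with no replicates. For the white adipose arrays the source label names the tissue, while the title names a preconfluent state. The labels do not say how many animals gave the RNA of a tissue.

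In mammals the liver secretes most plasma apolipoproteins, either on nascent very low density lipoproteins or as lipid-poor particles that mature into high density lipoproteins. The small intestine, which was not among the tissues, is the other main source, above all of Apoa4 and of the intestinal share of Apoa1. Apoe differs from the rest in that many cells make it outside the liver, among them macrophages, adipocytes and the astrocytes of the brain, and it serves as a ligand for receptors that take up lipoprotein remnants. Hepatocyte genes are commonly driven by the factors HNF1, HNF4, FOXA and C/EBP.

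The data separated the 9 measured genes into those seen in liver alone, those seen in liver and 1 further tissue, Apoe, and Apoa1. To let the upstream DNA of these classes be compared, the 250 bases before the transcription start are given for 3 genes seen in liver alone (Apoh, Pon1 and Apoc2) and for Apoe, from RefSeq on the mouse assembly GRCm38.p6. They are written 5′ to 3′ on the gene's own strand, and capitals mark a match, on either strand, to any of 5 short motifs.
Apoh, chr11:108395047-108395296, strand +: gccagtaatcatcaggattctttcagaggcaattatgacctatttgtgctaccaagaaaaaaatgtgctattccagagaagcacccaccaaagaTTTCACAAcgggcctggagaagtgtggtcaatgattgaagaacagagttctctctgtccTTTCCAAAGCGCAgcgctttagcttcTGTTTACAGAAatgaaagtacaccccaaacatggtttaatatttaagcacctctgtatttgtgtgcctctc
Pon1, chr6:5193947-5194196, strand -: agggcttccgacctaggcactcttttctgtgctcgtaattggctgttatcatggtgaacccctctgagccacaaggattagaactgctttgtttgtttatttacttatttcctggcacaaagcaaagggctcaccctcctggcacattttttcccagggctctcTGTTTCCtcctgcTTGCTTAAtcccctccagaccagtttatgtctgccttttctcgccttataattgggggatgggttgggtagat
Apoc2, chr7:19677942-19678191, strand -: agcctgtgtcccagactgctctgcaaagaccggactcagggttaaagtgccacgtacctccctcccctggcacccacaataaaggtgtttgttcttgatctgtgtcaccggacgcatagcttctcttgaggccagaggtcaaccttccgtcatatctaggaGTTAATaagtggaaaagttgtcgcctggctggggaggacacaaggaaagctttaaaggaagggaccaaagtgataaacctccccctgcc
Apoe, chr7:19699189-19699438, strand -: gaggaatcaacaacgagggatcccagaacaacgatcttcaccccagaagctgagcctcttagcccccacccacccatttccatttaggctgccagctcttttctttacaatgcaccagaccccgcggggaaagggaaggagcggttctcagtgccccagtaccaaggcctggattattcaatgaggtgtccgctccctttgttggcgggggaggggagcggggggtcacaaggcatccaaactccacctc
The motifs were the TATA box, with the letters TATAAA, the HNF1 motif GTTAAT, the HNF4 motif CAAAGNNCA, the FOXA motif TGTTTNC and the C/EBP motif TTNCNNAA, where N is any base. Among 27025 promoter windows of the same length, 13.0% held the TATA box, 6.52% the HNF1 motif, 5.47% the HNF4 motif, 17.9% the FOXA motif and 36.9% the C/EBP motif. The Apoh window held 1 HNF4 match, from -93 to -85 relative to the start, 1 FOXA match and 3 C/EBP matches. In it a C/EBP match overlapped the HNF4 match and another overlapped the FOXA match. The Pon1 window held 1 FOXA and 1 C/EBP match, and the Apoc2 window 1 HNF1 match. None of the 5 motifs was found in the Apoe window. Apoe had 3 promoter entries, of which only the first was searched, while each of the other 3 printed genes had 1. A match is a string of letters and not a measured binding site, and the absence of one says only that these letters are not in this window.

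The values are linear intensities, scaled so that all arrays of a chip share 1 trimmed mean. On each array 17.1% to 38.8% of values were below 0, so each array was given a noise bound, the size of its 1st percentile. On chip A the bound was 295 in liver, 1166 in pancreas, 1065 in muscle, 258 in hypothalamus and 390.1 in white adipose tissue. The bounds of chip B were 792, 2608, 1640, 649.5 and 918 in the same order of tissues. Pancreas and muscle were therefore the least sensitive tissues, and a value under its bound is treated as not seen at this sensitivity, not as absent. Tissue markers matched the tissue labels: 7 of 7 measured hepatocyte markers were above the bound in liver, 4 of 4 acinar markers in pancreas, 5 of 5 muscle markers in muscle, 5 of 6 neuronal markers in hypothalamus and 6 of 6 adipocyte markers in white adipose tissue. With 1 array per tissue no test between tissues was possible. The repeat used was that of 11 control probe sets present on both chips. Their contrasts of liver over another tissue differed between chips by a median of 0.29 on the log2 scale and at most 0.96, over 36 contrasts. All of these contrasts share the liver arrays, and several of the control probe sets are of the same gene, so they are not independent. Folds below are liver over the other tissue, and "at least" marks a fold taken against the other array's bound. Summed marker levels below leave out values below 0 but include positive values under the bound.

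Liver was the tissue in which most of these genes were seen. A probe set above the liver bound was present for 8 of the 9 genes, and 10 of the 15 probe sets were above it, against 33.2% of all single-gene probe sets. In pancreas 1 of 15 was above the bound (14.6% of all), in muscle 2 (17.0% of all), in hypothalamus 2 (39.5% of all) and in white adipose tissue 3 (32.1% of all). A probe set was called selective for liver where its value, raised where lower to 175 (chip A) or 123 (chip B), the floor, was at least 4 times that of each of the other 4 tissues. By this rule 8 of the 15 probe sets were called, against 2.63% of all single-gene probe sets, and 6 of the 9 genes, against 2.79% of all genes. Among the 8 was a second Apoh probe set whose liver value lay under the liver bound. The 6 genes were Apoa2, Apoa4, Apoc1, Apoc2, Apoh and Pon1. Liver held the highest value for 7 of 9 genes, against 13.7% of all genes, the exceptions being Apoe and Apoa1. For Apoe this was by the chip A probe set, which stood for the gene, while its chip B probe set was highest in liver. Apoa1 was under every bound.

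**Figure D1:**
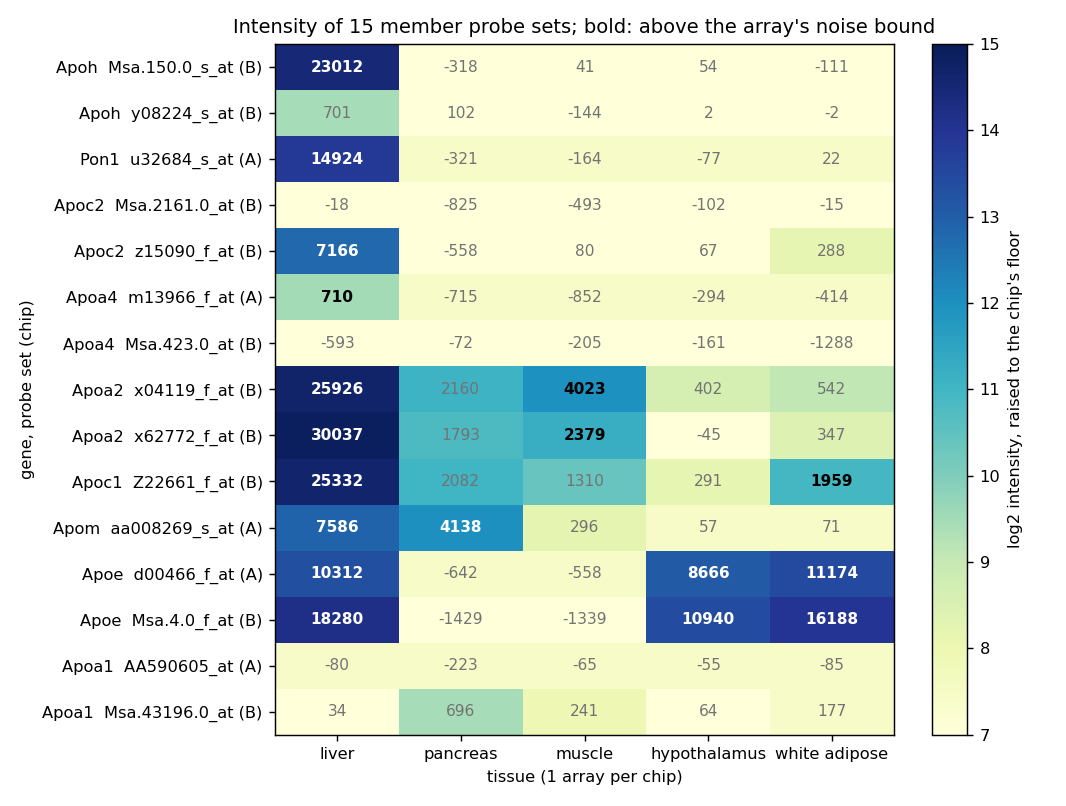
Scaled intensity of the 15 probe sets (rows, with the chip in brackets) in the 5 tissues (columns, 1 array each); colour gives the log2 intensity after raising low values to the chip's floor, and bold numbers lie above the array's noise bound. Liver has bold numbers in 10 rows, pancreas in 1, muscle in 2, hypothalamus in 2 and white adipose tissue in 3.

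Of the genes seen in liver alone, Apoh encodes a phospholipid-binding plasma glycoprotein that is the target of antiphospholipid antibodies. Its main probe set read 23012 in liver, -318 in pancreas, 41.2 in muscle, 53.6 in hypothalamus and -111 in white adipose tissue. The liver value was at least 8.82-fold over pancreas, at least 14.0-fold over muscle, at least 35.4-fold over hypothalamus and at least 25.1-fold over white adipose tissue. Liver thus stood far above every other array, and none of the 4 other values passed its bound. A second Apoh probe set had its highest value, 701, in liver too, but this lay under the liver bound of 792, so it adds no detection of its own. In bulk tissue a lower value from fewer expressing cells and one from less RNA per cell cannot be told apart, here and below.

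Pon1, the esterase that rides on high density lipoprotein and hydrolyses lactones and oxidised lipids, showed the same shape. It read 14924 in liver, -321 in pancreas, -164 in muscle, -76.6 in hypothalamus and 22.1 in white adipose tissue. Against the bounds this was at least 12.8-fold over pancreas, 14.0-fold over muscle, 57.8-fold over hypothalamus and 38.3-fold over white adipose tissue. Its paralogs lie beside it in the genome, in the order Pon1, Pon3, Pon2. Pon3 read 866 in liver and 1290 in white adipose tissue, both above their bounds. Pon2 read 861 in liver and, like Pon1, passed its bound there alone, with 472 in white adipose tissue and 396 in hypothalamus. Unlike that of Pon1, the Pon2 liver value lay under the bounds of pancreas, muscle and white adipose tissue. An equal level in those tissues would therefore not be seen.

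Apoc2 is the cofactor that lipoprotein lipase needs to release fatty acids from triglyceride-rich particles. One of its 2 probe sets read 7166 in liver, -558 in pancreas, 80.3 in muscle, 66.5 in hypothalamus and 288 in white adipose tissue. The smaller liver signal and the high pancreas bound limit the fold to at least 2.75 over pancreas, while it was at least 4.37 over muscle, 11.0 over hypothalamus and 7.80 over white adipose tissue. The call of Apoc2 for liver rested on the floor: the log2 of liver over the highest other tissue was 4.64 with it and 1.46, short of 4-fold, with each array's bound in its place. The other Apoc2 probe set read between -825 and -15.1 in the 5 tissues and saw nothing.

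Apoa4, a protein of intestinal chylomicrons and of high density lipoproteins, was the weakest of the 4 genes relative to its bounds. The chip A probe set read 710 in liver, above the bound of 295, and -715 in pancreas, -852 in muscle, -294 in hypothalamus and -414 in white adipose tissue. Liver was at least 2.75-fold over hypothalamus and at least 1.82-fold over white adipose tissue, but it lay under the bounds of pancreas and muscle, so no fold can be given there. The same held for the call of Apoa4, for which this log2 was 2.02 with the floor and -0.72 with each array's bound in its place. The chip B probe set read -593 in liver, -72.1 in pancreas, -205 in muscle, -161 in hypothalamus and -1288 in white adipose tissue. Of 5 measured enterocyte markers, 2 were above the liver bound, near the 33.2% of all single-gene probe sets. Fabp2 read 598 in liver and below 0 elsewhere, while Cdx2 read 1049 in liver, 4554 in pancreas, 870.4 in muscle, 863 in hypothalamus and 936 in white adipose tissue. The 5 markers summed to 1959 in liver and 6253 in pancreas, and their part in the Apoa4 signal was not tested.

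**Figure D2:**
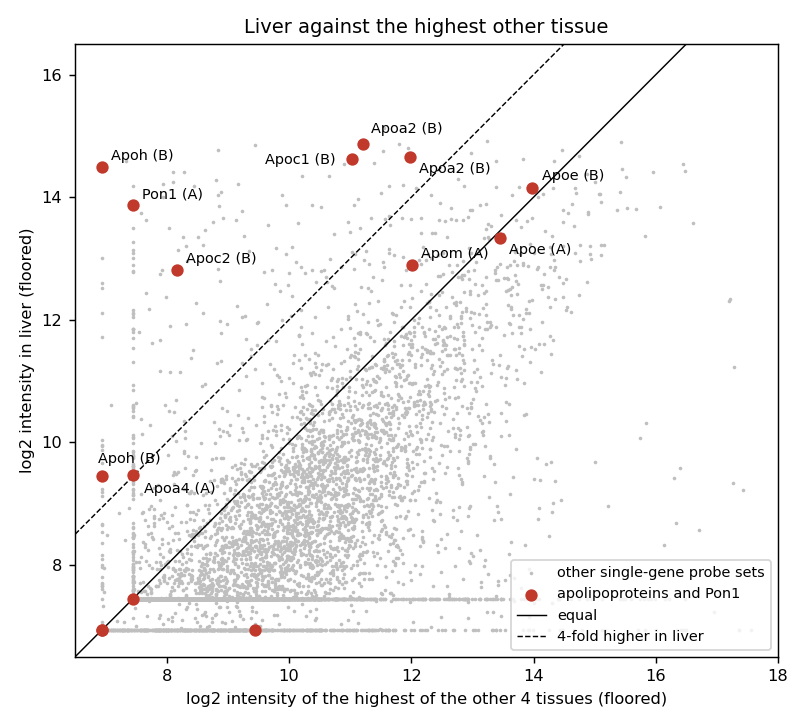
Each point is a single-gene probe set, with the log2 intensity in liver (vertical) against the highest of the other 4 tissues (horizontal), both raised to the chip's floor; red points are the 15 probe sets of apolipoproteins and Pon1. Of the red points, 8 lie on or above the dashed 4-fold line, Apoe on both chips lies near the line of equality and Apom between the lines.

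Liver and 1 further tissue were above their bounds for Apoa2, Apoc1 and Apom. Apoa2, the second most abundant protein of high density lipoproteins, was seen in liver and muscle by both of its chip B probe sets. The first read 25926 in liver, 2160 in pancreas, 4023 in muscle, 402 in hypothalamus and 542 in white adipose tissue. The second read 30037 in liver, 1793 in pancreas, 2379 in muscle, -44.7 in hypothalamus and 347 in white adipose tissue. Liver was the highest in both, and muscle the only other tissue above its bound. The muscle value was 15.5% of that in liver by the first and 7.92% by the second, or folds of 6.44 and 12.6, so the pair differed in size but not in direction. Over hypothalamus the liver value was at least 39.9-fold and 46.2-fold higher by the 2 probe sets, and over white adipose tissue at least 28.2-fold and 32.7-fold. The only measured hepatocyte marker above the muscle bound was Serpina1a, with 28662 in liver and 2787 in muscle; a second probe set of it read 18532 in liver and 40.2 in muscle, under the bound. Summed over the 7 measured markers, muscle held 4.09% of the liver level; their part in the muscle signal of Apoa2 was not tested.

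Apoc1, a small exchangeable apolipoprotein that inhibits lipoprotein uptake and lipase action, had 1 probe set. It read 25332 in liver, 2082 in pancreas, 1310 in muscle, 291 in hypothalamus and 1959 in white adipose tissue. White adipose tissue was the only other tissue above its bound, at 7.73% of the liver value, a fold of 12.9. Pancreas, although its value was higher, lay under its bound of 2608, and liver was at least 9.71-fold over it. The fold was at least 15.5 over muscle and at least 39.0 over hypothalamus. Hepatocyte markers were above the bound in white adipose tissue for 0 of 7, with a summed level of 0.923% of that in liver. Macrophages are a known source of Apoc1 and Apoe. Of 11 macrophage markers, 8 were above the bound in white adipose tissue and 6 in liver, with summed levels of 30177 in white adipose tissue and 11271 in liver, and 7 of the 11 were highest in white adipose tissue. Their part in the white adipose signal of Apoc1 was not tested.

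Apom, a lipocalin of high density lipoproteins that carries sphingosine phosphate, was the only 1 of the 9 genes seen in pancreas. It read 7586 in liver, 4138 in pancreas, 296 in muscle, 56.7 in hypothalamus and 71.3 in white adipose tissue. Pancreas reached 54.5% of the liver value, a fold of 1.83, or 0.87 on the log2 scale. The repeated controls differed between chips by at most 0.96 over all contrasts and at most 0.63 for liver over pancreas. Apom had a single probe set, so its own difference between chips is not known. Both tissues stood above the rest, liver at least 7.12-fold over muscle, 29.4-fold over hypothalamus and 19.4-fold over white adipose tissue. Liver and pancreas together at least 4-fold above the other 3 tissues was a pattern that Apom shared with 0.385% of single-gene probe sets. Hepatocyte markers were above the pancreas bound for 3 of 7. These were Ttr, with 4144 in liver and 1995 in pancreas (48.2% of liver), Ahsg, with 17119 in liver and 2911 in pancreas (17.0% of liver), and Serpina1a, with 28662 in liver and 3951 in pancreas (13.8% of liver). The second Serpina1a probe set read 350 in pancreas, under the bound. The other 4 were under the pancreas bound, with Fgg at 985, Arg1 at 102, Hpd at -148 and Tdo2 at -916. Summed with the negative values of Hpd and Tdo2 left out, the markers reached 8.73% of the liver level in pancreas. Their part in the Apom signal there was not tested. The size of the difference depended on scaling: the log2 of liver over the highest other tissue was 0.87, but 2.77 when arrays were scaled to their spiked-in control transcripts, a setting chosen after the data were seen. Without the pancreas arrays it was 4.68.

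Apoe was seen in 3 of the 5 tissues, with values within 1.67-fold of each other on either chip. On chip A it read 10312 in liver, -642 in pancreas, -558 in muscle, 8666 in hypothalamus and 11174 in white adipose tissue. The chip B probe set read 18281 in liver, -1429 in pancreas, -1339 in muscle, 10940 in hypothalamus and 16188 in white adipose tissue. Both chips thus gave the same division into 3 tissues with strong signal and 2 with none above the bound, a pattern found in 0.305% of single-gene probe sets at the 4-fold threshold. Hypothalamus had 84.0% of the liver value on chip A and 59.8% on chip B. White adipose tissue had 108% of the liver value on chip A and 88.6% on chip B, so the order of these tissues was not the same on the 2 chips. The ratio of white adipose tissue to hypothalamus was 1.29 by chip A and 1.48 by chip B, and liver over hypothalamus was 1.19 by chip A against 1.67 by chip B. On the log2 scale the chips differed by 0.49 in liver over hypothalamus and by 0.29 in liver over white adipose tissue. The repeated controls differed by at most 0.65 and 0.62 in these same contrasts. For white adipose tissue over hypothalamus the chips differed by 0.20, and the controls were not compared there. No order among the 3 tissues is therefore given. Against pancreas, liver was at least 8.84-fold higher on chip A and at least 7.01-fold on chip B, and against muscle at least 9.68-fold and at least 11.2-fold. Hypothalamus was at least 7.43-fold over the pancreas bound on chip A and at least 4.19-fold on chip B. White adipose tissue was at least 9.58-fold and at least 6.21-fold over it.

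Markers of cells known to make Apoe were read in the same tissues. In hypothalamus 4 of 6 measured astrocyte markers were above the bound, among them S100b at 1934 (159.6 in liver) and Gfap at 693 (210.4 in liver, and under every bound by a second probe set), with summed levels of 5558 in hypothalamus and 1264 in liver. Gfap had its highest value in pancreas, 1439, under the bound there. The other 2 did not mark hypothalamus: Slc1a2 read 781 in liver and 134 in hypothalamus, under the bound, and Aqp4 was under every bound. Macrophage markers were above the hypothalamus bound for 4 of 11, near the 39.5% of all single-gene probe sets. In white adipose tissue the adipocyte marker Adipoq read 16860, against 120 in liver. No hepatocyte marker of the 7 was above the bound in hypothalamus or white adipose tissue, and their summed level was 0.694% and 0.923% of that in liver in these 2 tissues. In pancreas macrophage markers summed to 13885, against 11271 in liver, with 1 of 11 above the pancreas bound. The part of these cells in the Apoe signal was not tested.

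Apoc2, Apoc4, Apoc1 and Apoe lie next to each other in the RefSeq gene order, followed by Tomm40. Within this cluster Apoe was above the bound in liver, hypothalamus and white adipose tissue, Apoc1 in liver and white adipose tissue, and Apoc2 in liver. White adipose tissue held 108% (chip A) and 88.6% (chip B) of the liver value for Apoe and 7.73% for Apoc1, while the Apoc2 value there was under its bound, so that liver was at least 7.80-fold higher. The fold of liver over hypothalamus was 1.19 (chip A) and 1.67 (chip B) for Apoe, at least 39.0 for Apoc1 and at least 11.0 for Apoc2. Apoc4 was not analysed here. The other cluster, Apoa1, Apoc3, Apoa4 and Apoa5, was represented only by Apoa1 and Apoa4.

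**Figure D3:**
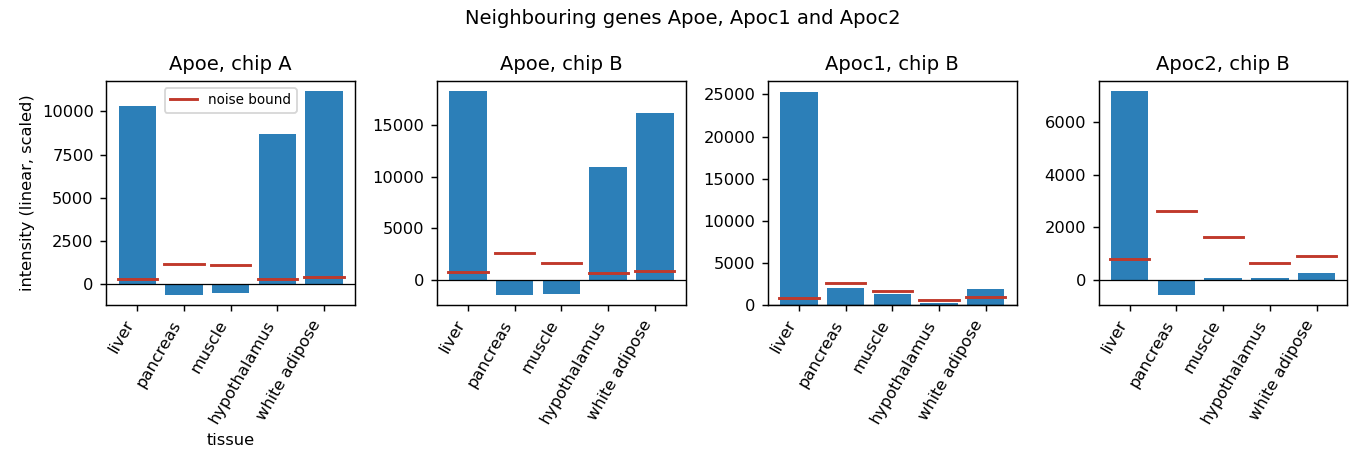
Scaled linear intensity of Apoe on both chips and of its neighbours Apoc1 and Apoc2 in the 5 tissues, 1 bar per array, with the array's noise bound as a red line; the vertical scales differ. Apoe bars pass the line in liver, hypothalamus and white adipose tissue, Apoc1 bars in liver and white adipose tissue, and the Apoc2 bar in liver.

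Apoa1, the main protein of high density lipoproteins and the activator of the esterifying enzyme Lcat, was not seen in any tissue. Its chip A probe set read -79.8 in liver, -223 in pancreas, -65.1 in muscle, -54.7 in hypothalamus and -85.4 in white adipose tissue. The chip B probe set read 33.9 in liver, 696 in pancreas, 241 in muscle, 63.5 in hypothalamus and 177 in white adipose tissue. All 10 values lay under their bounds and have no order, so the higher reading in pancreas on chip B is no difference. By the design of the probe sets, 4 of the 15 had no letter in their name that marks a family of transcripts (_f_) or a shared sequence (_s_), and 0 of these 4, which include both of Apoa1, passed a bound in any tissue, against 38.8% of all single-gene probe sets without a letter. Of the 11 with such a letter, 10 passed one, against 58.7% of all with a letter; whether the design set these results was not tested. Both probe sets of Apoa2, both of Apoe, the 1 of Apoc1 and those that detected Apoc2 and Apoa4 were of the family design, which can also bind messages of related genes; those of Apoh, Pon1 and Apom were of the shared design.

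The other genes of lipoprotein handling were counted in the same way. Of 72 such genes in 4 lists, 41 were measured, and 32 of these passed a bound in some tissue. Among all single-gene probe sets, 38.8% of those without a design letter and 58.7% of those with one passed a bound. These shares are of probe sets, while each of the 41 genes was read by its highest-ranking probe set. The comparison is therefore not like for like, and a share over all genes was not computed. Of the 41 genes, 13 were highest in liver, against 13.7% of all genes. The 13 include Foxa1 and Onecut1, which were under every bound, so their values have no order. The 6 called for liver, against 2.79% of all genes, were all above the liver bound. The median log2 of liver over the highest other tissue was 2.69 over the 9 genes, -0.59 over the 41 and -0.98 over all genes. Lists and members were chosen with these data known, so the medians describe and do not test.

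Among 7 measured other apolipoproteins and paraoxonases, 1 was called, Saa2, an acute-phase apolipoprotein of high density lipoproteins, with 1123 in liver and 193 or less elsewhere, while its second probe set was below 0 in all 5 tissues. The Saa2 liver value lay under the pancreas bound, so no fold over pancreas can be given. Saa4, a constitutive member of that family, read 388 in liver, above the bound, and below 0 in the other 4 tissues. Clu, a secreted chaperone also known as apolipoprotein J, read 15597 in liver, 35231 in pancreas, 1451 in muscle, 12139 in hypothalamus and 2246 in white adipose tissue, and so was above the bound everywhere on chip A. Apod, a lipocalin found in glia, had its values above the bound outside liver: it read 46.9 in liver, 1652 in muscle and 1194 in hypothalamus, and its second probe set passed the bound in hypothalamus alone, at 1674.

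The 11 measured genes of enzymes, assembly and transfer gave 2 calls. Lcat, which esterifies cholesterol on high density lipoproteins, read 7426 in liver, 1169 in pancreas, 387 in muscle, 203 in hypothalamus and 47.2 in white adipose tissue, a fold of 6.35 over pancreas. Mttp, which loads lipid onto nascent Apob, read 762 in liver and 154 or less elsewhere. The Mttp liver value lay under the bounds of pancreas and muscle, so no fold over these can be given. P4hb, a subunit of the same transfer complex and a general folding enzyme, read 6976 in liver and 10527 in pancreas. Angptl4, an inhibitor of lipoprotein lipase, read 696 in liver and 964 in white adipose tissue. Lpl itself, for which Apoc2 is the cofactor, stood higher in muscle and white adipose tissue than in liver, where Apoc2 was seen: it read 356 in liver, 1775 in pancreas, 19582 in muscle, 172 in hypothalamus and 10295 in white adipose tissue, while its second probe set was under every bound.

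Of 8 measured receptors and uptake genes, 2 were called. Sdc1, a heparan sulphate proteoglycan that binds remnants, read 989 in liver and below 0 in the other 4 tissues, and its second probe set was under every bound. The liver value of 989 lay under the bounds of pancreas and muscle, so no fold over these can be given. Lsr, a lipolysis-stimulated receptor, read 1655 in liver, at least 1.42-fold over pancreas. Lrp1, a receptor for Apoe-bearing remnants, was above the bound in every tissue but pancreas, with 3787 in liver, 1312 in pancreas, 3723 in muscle, 1894 in hypothalamus and 2571 in white adipose tissue. Cd36, a fatty acid and scavenger receptor, read 2765 in liver, 5435 in muscle and 19888 in white adipose tissue. Cubn, an endocytic receptor for high density lipoprotein, was under every bound.

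Among 15 measured regulators only Nr1h4, the bile acid receptor, was called, with 1452 in liver and values below 0 in the other 4 tissues, at least 1.24-fold over pancreas. Foxa2 read 375 in liver and Nr2f6 968, both above the liver bound, with 321 and 848 in pancreas, under the bound there. Nr2f6 also passed the bound in hypothalamus, at 609.7, and in white adipose tissue, at 482. Foxa1 was under every bound. Nr5a2, an orphan receptor of liver and exocrine pancreas, read 1858 in liver and 2720 in pancreas by the probe set that stood for it; of its 3 others, 1 passed the bound, in liver at 430, with 235 in pancreas. Rxra, the partner of many lipid-sensing receptors, read 332 in liver, under the bound, and 2620 in muscle.

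**Figure D4:**
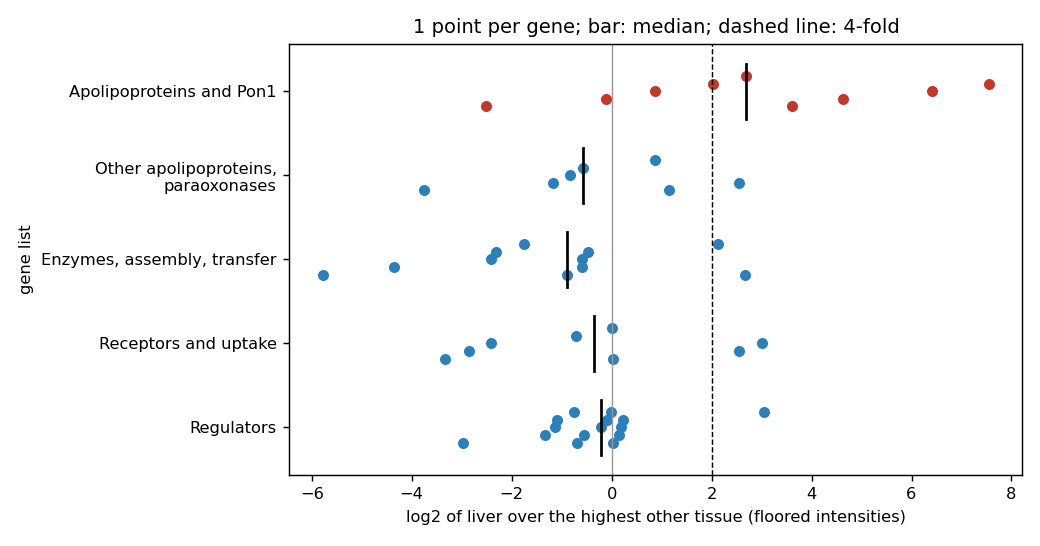
Log2 of liver over the highest other tissue (horizontal, intensities raised to the floor) for the 9 measured apolipoprotein and Pon1 genes and for the 41 measured genes of 4 lists (rows), 1 point per gene with the median as a bar and the 4-fold rule as a dashed line. The median is 2.69 in the top row and between -0.90 and -0.21 in the 4 others.

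Profiles were compared with that of Apoe by the root mean square difference of centred log2 values over 5 tissues. The comparison took the 2097 genes whose highest value exceeded the highest noise bound of their chip. The closest were Pnp (0.96), Dnaja1 (1.03), Hmgcs1 (1.09), Lpgat1 (1.11) and Serpina3n (1.33). All 5 were above the bound in liver, hypothalamus and white adipose tissue and under it in pancreas and muscle, as Apoe was. They were picked for likeness in these same values, so the shared pattern only describes them. Hmgcs1, the cytosolic synthase of the cholesterol pathway, read 9092 in liver, 3171 in hypothalamus and 1897 in white adipose tissue. Pon1 had closer neighbours: Hpd (0.022), Ces1c (0.081), Cyp2d26 (0.13), Cyp3a16 (0.14) and Cyp2c29 (0.14), all above the bound in liver alone. These differences are small because most values outside liver sit at the floor, so for Pon1 they compare little more than the height in liver. For Apoa1 no such genes are named, since none of its values passed a bound.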

How the data were processed

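Total RNA was extracted with Trizol and 10 µg of it labelled as biotin cRNA, per the labels. The authors deposited linear intensities as whole numbers and had brought each array to a trimmed mean between 500.8 and 501.5. The software and its detection calls are not stated in the labels or files used. The 61 control probe sets of each chip were left out, and the arrays of a chip were brought to 1 common mean, taken after trimming 2% at each end (factors 0.993 to 1.005). The floor was the median of the 5 array medians. Ratios were taken on the log2 scale. For a gene with several probe sets, the one whose mean log2 intensity ranked highest on its own chip stood for the gene. Symbols came from platform annotation, updated by gene identifier from RefSeq genes of GRCm38.p6, in which 7525 of 7542 probe sets had an entry.

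All 10 members were to be named with every probe set, up to 4 genes per list by the largest liver fold plus the 2 highest outside liver, and the 5 genes most like Apoe, Apoa1 and Pon1. Members and lists were chosen with earlier results of these data known. With 1 array per tissue, and no word on separate animals, no test was made, and precision is limited by the number of arrays. The counting was tested on simulated data. Python 3.11.15, numpy 2.4.6, pandas 2.3.3 and matplotlib 3.10.9 were used.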

Additional observations from a re-analysis of the deposited data

How the results depend on the processing

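The count of 8 probe sets called for liver became 5 with each array's noise bound as floor and 5 at 10-fold. It was 0 without probe sets that have a design letter in their name, and 3 when those marked _s_ were kept, a setting added after the data were seen. The 6 genes called became 0 and 2, and the 7 genes highest in liver 0 and 3, under these 2 design settings. Fewer probe sets remained, and those left for Apoa4 and Apoc2 read below 0 in every tissue. With the noise bound as floor 4 genes were called, Apoa4 and Apoc2 being lost. Values as deposited, 75th percentile scaling, quantile normalization, scaling by spikes, a higher floor and leaving out pancreas gave 6 to 9 probe sets. The 7 genes highest in liver became 8 with 75th percentile scaling and with the noise bound as floor. They also became 8 when the probe set with the highest liver value stood for a gene. The 6 other lipoprotein genes called became 1 with a 75th percentile floor, 1 with the noise bound as floor, 1 without design letters and 0 at 10-fold. The Apoe range was 6.00 on the log2 scale by the chip A probe set and 7.22 by that of chip B. It was 4.22 with a 75th percentile floor. With the noise bound as floor it was 3.48, but there the chip B probe set stood for the gene. For the chip A probe set, white adipose tissue over the muscle bound was 3.39. Apoa4 turned to -0.72 with the noise bound as floor. Apoe in liver over white adipose tissue was -0.12, but -0.42 after quantile normalization, -0.30 by spikes and 0.12 by the 75th percentile. Scaling by the 75th percentile moved liver against the other tissues by 0.13 to 0.85, and spikes moved liver against pancreas by 1.90 on chip A and 2.07 on chip B. No array could be left out as a replicate. No paired analysis was possible because each group has 1 array per chip and no replicate numbers.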

Other observations

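The ratio of the 3′ to the 5′ probe set of Actb, a sign of how complete the RNA or its copy was, was 2.84 in liver, 4.74 in pancreas, 1.41 in muscle, 2.17 in hypothalamus and 1.56 in white adipose tissue on chip A. On chip B it was 2.61 in liver, 2.69 in pancreas, 1.34 in muscle, 1.96 in hypothalamus and 1.51 in white adipose tissue. The same ratio for Gapdh was 1.18 in liver and 1.56 in pancreas on chip A, and 1.35 in liver and 1.09 in pancreas on chip B. Over all single-gene probe sets of both chips, 760 of 1959 without a design letter (38.8%) passed a noise bound in some tissue, against 461 of 595 of the family design (77.5%) and 2533 of 4480 of the shared design (56.5%). The family design made up 5.65% of single-gene probe sets on chip A and 14.1% on chip B, and 7 of the 15 for apolipoproteins and Pon1. Of the promoter windows not printed above, that of Apoa1 held 2 FOXA matches, Apoa2 1 TATA box and 1 FOXA match, Apoa4 1 HNF4 match, Apob 1 match each of TATA box, HNF4, FOXA and C/EBP, and Apom 1 FOXA match. The TATA box letters lay from -212 to -207 relative to the start in Apoa2 and from -60 to -55 in Apob. Apoa2 had 2 promoter entries, of which only the first was searched.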
